A study of Mus musculus with 24 samples.

Results

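The BMP ligand genes Bmp2, Bmp4 and Bmp7 and the homeobox genes Msx1 and Msx2 were examined for 2 modifications of histone H3 lysine 27 in mouse limb buds. The 5 genes were followed in fixed windows of the mouse build mm9: Bmp2 in 400 kb of chromosome 2 (133200001 to 133600000), Bmp4 in 300 kb of chromosome 14 (46850001 to 47150000), Bmp7 in 200 kb of chromosome 2 (172650001 to 172850000), Msx1 in 200 kb of chromosome 5 (38100001 to 38300000) and Msx2 in 250 kb of chromosome 13 (53450001 to 53700000). When the peaks of the 4 libraries of a mark were joined into regions, the windows held 55 of 29871 regions for acetylation (H3K27ac) and 21 of 14776 for trimethylation (H3K27me3). Exon and intron positions are not given, because no mm9 gene models were used here. Nearest coding neighbours in the RefSeq table were Fermt1 and Hao1 for Bmp2, Ddhd1 and Cdkn3 for Bmp4, Tfap2c and Spo11 for Bmp7, Cytl1 and Stx18 for Msx1, and Gm38564 and Drd1 for Msx2. Peaks away from the centre of a window were not assigned to a gene.

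The tissue was forelimb and hindlimb buds of C57BL/6J embryos, and the labels name no mutation or treatment in any group. At embryonic day 10.5 (E10.5) there were 2 libraries per limb for each mark, with a single H3K27ac library per limb at E11.5, so that 10 peak lists were read. The E10.5 lists held 13589 to 21363 H3K27ac peaks covering 7.63 to 14.7 Mb, and 10477 to 12901 H3K27me3 peaks covering 7.56 to 13.50 Mb. At E10.5, forelimb replicate 2 was the shortest list of each mark. The E11.5 H3K27ac lists held 23209 peaks covering 31.3 Mb in forelimb and 32612 covering 47.2 Mb in hindlimb. Sequencing depth is unknown from peak lists, and a place without a peak is one where nothing reached the cutoff the authors set. The limb labels were checked on genes of limb identity: in 100 kb at Tbx5 the forelimb H3K27ac lists covered 22.8 and 17.1 kb and both hindlimb lists 0 kb, and at Pitx1 both forelimb lists covered 0 kb and the hindlimb lists 13.4 and 13.97 kb. Prrx1, a gene of limb mesenchyme, was acetylated in all 4 lists, over 4.25 to 7.53 kb of 100 kb.

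Bone morphogenetic proteins are secreted ligands that bind serine/threonine kinase receptors and act through SMAD transcription factors. In the limb bud they come from the apical ectodermal ridge and the mesenchyme, and they act in patterning, ridge regression, interdigital cell death and skeletal formation. Msx1 and Msx2 encode homeodomain repressors and are among the well known BMP-induced genes. H3K27ac marks active promoters and enhancers, and H3K27me3 is laid down by Polycomb complexes, which in mammals are found mainly at CpG-rich promoters. Whole buds were used, with all their cell types together. Fewer marked cells and less mark per cell therefore cannot be told apart, and both marks at a place can come from different cells.

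Start-site sequences were looked up for the 5 genes, since Polycomb marking is tied to CpG content, and 3 of the 5 had an entry in the RefSeq promoter table (GRCm38.p6). Each sequence runs 5′ to 3′ from 250 bases before to 50 bases after the start, in lower case, with each CG dinucleotide in capitals.
Bmp4, chr14:46390620-46390919, minus strand: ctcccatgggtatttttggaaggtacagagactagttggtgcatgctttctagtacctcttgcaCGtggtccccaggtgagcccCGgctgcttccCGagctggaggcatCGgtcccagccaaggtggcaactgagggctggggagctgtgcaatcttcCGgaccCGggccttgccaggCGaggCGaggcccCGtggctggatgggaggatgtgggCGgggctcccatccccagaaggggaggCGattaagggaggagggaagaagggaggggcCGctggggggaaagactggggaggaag
Msx1, chr5:37824536-37824835, minus strand: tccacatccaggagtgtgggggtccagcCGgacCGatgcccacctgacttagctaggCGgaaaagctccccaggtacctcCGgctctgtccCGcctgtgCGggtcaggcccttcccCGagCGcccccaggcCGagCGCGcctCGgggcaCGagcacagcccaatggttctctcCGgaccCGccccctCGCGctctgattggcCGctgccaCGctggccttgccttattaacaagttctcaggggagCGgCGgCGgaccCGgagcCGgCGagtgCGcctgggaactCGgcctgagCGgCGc
Msx2, chr13:53472731-53473030, minus strand: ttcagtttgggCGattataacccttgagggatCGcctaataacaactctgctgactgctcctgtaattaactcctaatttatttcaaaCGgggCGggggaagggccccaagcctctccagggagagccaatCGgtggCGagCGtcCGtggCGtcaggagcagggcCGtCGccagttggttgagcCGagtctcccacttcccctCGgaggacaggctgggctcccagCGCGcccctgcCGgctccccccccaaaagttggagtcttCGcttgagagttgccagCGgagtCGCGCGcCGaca
Msx1 had 29 CG dinucleotides in these 300 bases, Msx2 had 22 and Bmp4 had 12. The median of 32851 promoters of the same length was 7, and 87.1% of them had fewer than Msx1, 76.9% fewer than Msx2 and 60.4% fewer than Bmp4. CG occurred at least once in 94.6% of the promoters. The peaks are in mm9 and these sequences in another build, so the peaks below were not placed against them.

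The 5 windows fell into different arrangements of the marks at E10.5. Bmp7 was acetylated with almost no H3K27me3. Bmp2 was covered mainly by H3K27me3, and what H3K27ac it had lay in the same place. Bmp4, Msx1 and Msx2 carried both marks, with the most covered places mostly side by side. Peaks of single lists also met. H3K27ac of any E10.5 list touched 2 of 2 H3K27me3 regions at Bmp4, 4 of 12 at Msx1 and 3 of 5 at Msx2. No genome share is given for these counts. Within equal windows of 100 kb, H3K27ac covered the most bases at Msx1 (3.34 ± 0.958 kb, SD over 4 lists of both limbs) and Bmp7 (3.06 ± 0.667 kb), followed by Bmp4 (2.39 ± 1.14 kb), Msx2 (1.27 ± 0.570 kb) and Bmp2 (0.497 ± 0.590 kb). Neighbours in this order overlapped in their ranges over the lists. Within single lists, Bmp4 was above Msx2 and Msx2 above Bmp2 in 4 of 4, and Msx1 was above Bmp7 in 3 of 4. For H3K27me3 the order was Msx1 (3.02 ± 1.62 kb), Bmp2 (2.45 ± 0.784 kb), Bmp4 (1.28 ± 0.570 kb), Msx2 (1.07 ± 0.767 kb) and Bmp7 (0 kb in all 4 lists). Msx1 was above Bmp2 in 2 of 4 lists, and Bmp4 above Msx2 in 2 of 4, both of them forelimb lists.

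**Figure D1:**
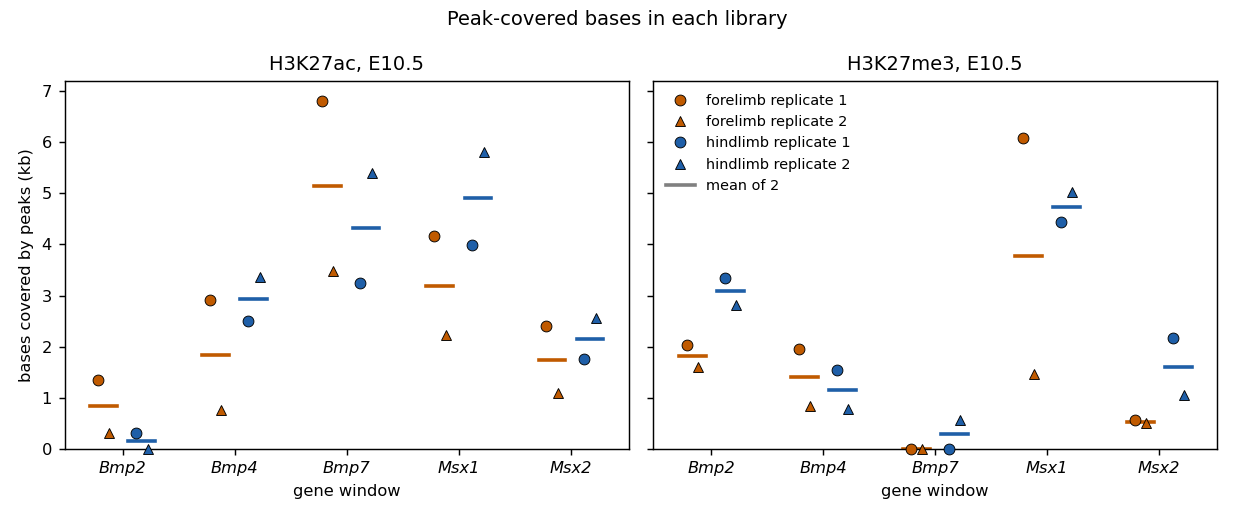
Bases covered by peaks (kb, y axis) in the window of each gene at E10.5, for H3K27ac and H3K27me3. Points are single libraries and short lines the mean of 2 per limb. Bmp7 had 0 kb of H3K27me3 in 3 of 4 libraries, and the hindlimb libraries lie above the forelimb libraries at Bmp2 and Msx2 for H3K27me3.

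Bmp2 carried the least H3K27ac and the most H3K27me3 of the 3 ligand genes followed here. It acts in the ridge and in later cartilage and bone formation. All E10.5 peaks of both marks in its 400 kb lay within a single H3K27me3 region of 3.41 kb, at 133377656 to 133381060. H3K27me3 covered 2.03 and 1.61 kb in forelimb replicates 1 and 2 and 3.35 and 2.82 kb in hindlimb replicates 1 and 2 (means 1.82 ± 0.298 and 3.09 ± 0.374 kb, SD, n = 2 each). Both hindlimb values were above both forelimb values, and the mean was 1.70 times higher. The domain was broken into 2 and 3 short peaks in forelimb, the longest 1.36 kb, whereas peaks of 2.90 and 2.82 kb spanned most of it in the hindlimb libraries, with a second one of 0.450 kb in replicate 1. The best peak score (the authors' value, a p-value on a -10 log10 scale that serves here to rank peaks inside a list) was 132.5 and 112 in forelimb and 986 and 826 in hindlimb. These peaks stood above 63.87% and 59.1% of the peaks of their own forelimb lists and above 92.5% and 92.4% of their hindlimb lists.

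H3K27ac at Bmp2 was sparse. It covered 1.35 and 0.318 kb in forelimb and 0.317 and 0 kb in hindlimb. The lower forelimb value and the higher hindlimb value differ by 1 base of peak width (318 against 317), so the limbs were separate only in the narrowest sense. The forelimb replicate 1 peak stood above 77.3% of its list, and the single peaks of forelimb replicate 2 and hindlimb replicate 1 above 17.3% and 12.9%. The region at 133377688 to 133378581 was found in both forelimb libraries and lay inside the H3K27me3 region. Of the H3K27ac bases, 1.11 and 1.10 kb of forelimb replicate 1 were also under H3K27me3 in the forelimb lists, and all 0.317 kb of hindlimb replicate 1 in both hindlimb lists. In forelimb replicate 2, 0.083 and 0.115 kb of its 0.318 kb were.

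Bmp4, which is expressed in limb mesenchyme and ridge, was acetylated over a compact stretch, with H3K27me3 to one side. H3K27ac covered 2.92 and 0.767 kb in forelimb and 2.50 and 3.36 kb in hindlimb (means 1.84 ± 1.52 and 2.93 ± 0.612 kb, SD, 2 libraries each), and the limbs overlapped. Regions at 47005125 to 47005826 and 47006913 to 47007855 were found in all 4 lists. Another, at 47009005 to 47010613, held the most bases (1.46, 0, 0.406 and 1.47 kb) and was missing from forelimb replicate 2. Between them, 47008248 to 47008970 was found in both hindlimb libraries and in neither forelimb library. The best H3K27ac peak stood above 73.0% and 45.5% of the forelimb lists and 92.2% and 86.1% of the hindlimb lists. H3K27me3 occupied 1 place in all 4 lists, 47017245 to 47018841, which began 6.63 kb after the last of these acetylated regions. It covered 1.56, 0.841, 1.54 and 0.772 kb there, in forelimb 1 and 2 and hindlimb 1 and 2. Forelimb replicate 1 alone had peaks that crossed this arrangement: an H3K27ac peak of 0.311 kb inside the H3K27me3 place, and an H3K27me3 peak of 0.398 kb inside the acetylated stretch.

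Bmp7, the ligand of another BMP subclass, carried the most H3K27ac per window of the 3 ligand genes followed here. It covered 6.81 and 3.49 kb in forelimb and 3.25 and 5.40 kb in hindlimb (means 5.15 ± 2.35 and 4.33 ± 1.52 kb, SD, 2 libraries each), and the limbs overlapped. Of windows of 200 kb tiled along the genome, 96.8% had less H3K27ac on average over the 4 lists. In the 100 kb window the forelimb and hindlimb means were 2.92 and 3.20 kb. Other genes inside the 200 kb were not mapped, so part of the cover may belong to them. The main region, 172764030 to 172766654, was found in all 4 lists over 2.38, 1.73, 1.67 and 2.13 kb. The second region of all 4 lists, at 172825530 to 172826619, was 60.7 kb from the centre of the main one, with 0.853, 0.359, 0.419 and 0.722 kb. Another place, 172671260 to 172671922, 93.8 kb away on the other side, was in 3 lists. The best peak stood above 96.3% and 95.2% of the forelimb lists and above 90.3% and 64.3% of the hindlimb lists. It lay in the main region except in hindlimb replicate 2, where it was 172760797 to 172761610, part of a place at 172760528 to 172761610 found in 3 lists. H3K27me3 was listed only in hindlimb replicate 2, as a peak of 0.570 kb at 172845779 to 172846348, 80.7 kb from the centre of the main region.

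**Figure D2:**
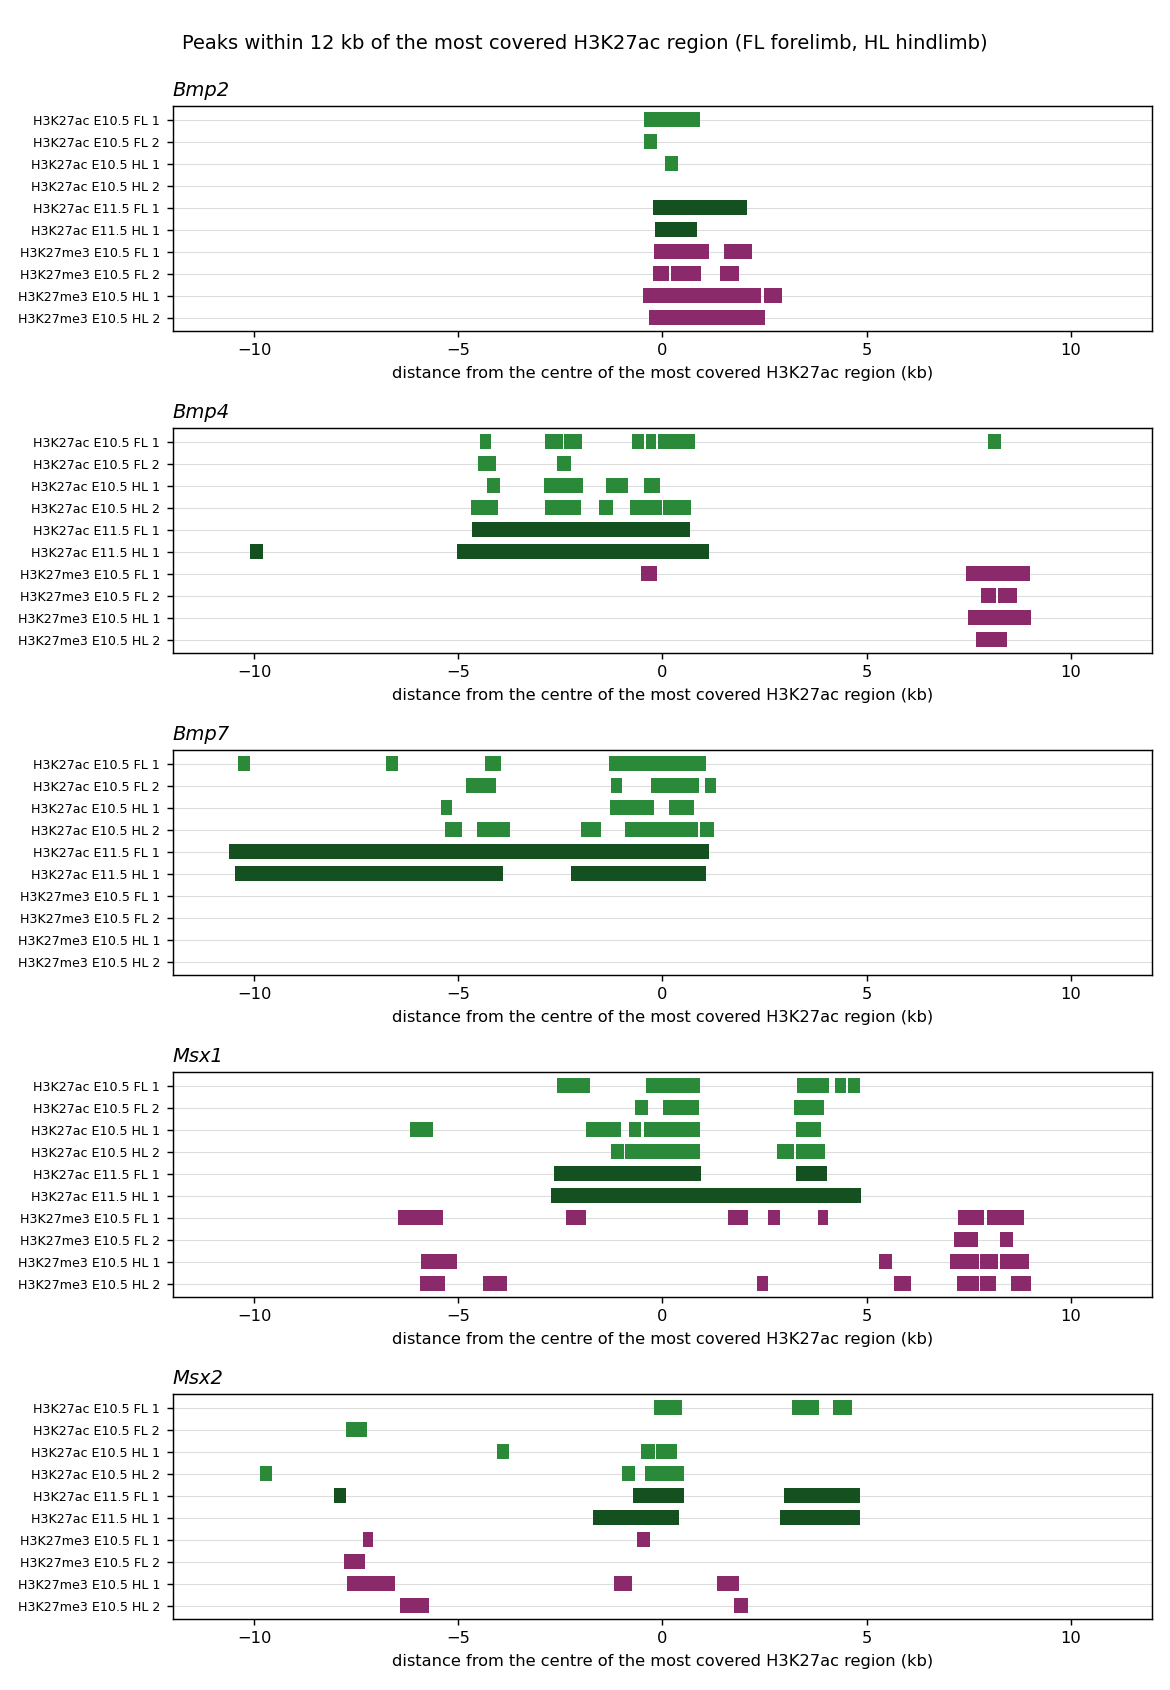
Peaks of the 10 lists within 12 kb of the centre of the most covered H3K27ac region of each gene, with the distance in kb on the x axis and one row per library (FL forelimb, HL hindlimb; green H3K27ac, dark green at E11.5, purple H3K27me3). H3K27me3 lies over the acetylated place at Bmp2, to one side at Bmp4, on both sides at Msx1, and is missing here at Bmp7.

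Msx1, a BMP-responsive homeobox gene, had an acetylated centre with H3K27me3 on both sides. H3K27ac covered 4.16 and 2.23 kb in forelimb and 3.99 and 5.81 kb in hindlimb (means 3.19 ± 1.367 and 4.90 ± 1.29 kb, SD, n = 2 each), with overlap between the limbs. The central region, 38213960 to 38215801, was covered over 1.31, 1.19, 1.65 and 1.84 kb in forelimb 1 and 2 and hindlimb 1 and 2. Its best peak stood above 91.4% and 77.0% of the forelimb lists and above 94.9% and 99.1% of the hindlimb lists. A second place in all 4 lists, 38218113 to 38218959, held 0.615 to 0.776 kb.

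H3K27me3 at Msx1 covered 6.08 and 1.46 kb in forelimb and 4.44 and 5.04 kb in hindlimb (means 3.77 ± 3.27 and 4.74 ± 0.424 kb, SD, n = 2 each). In the 100 kb window it covered 4.81 and 0.876 kb in forelimb and 3.07 and 3.31 kb in hindlimb. Other genes inside the 200 kb were not mapped here either, so part of the cover may belong to them. Forelimb replicate 2 was far below the other 3 libraries. Regions found in all 4 lists were 38221934 to 38223911, 6.13 kb beyond the central acetylated region, and 38106617 to 38108600, 105 kb before it. Another, 38208412 to 38209852, lay 4.11 kb before the central region and was missing only from forelimb replicate 2. Hindlimb replicate 1 had an H3K27ac peak of 0.562 kb inside it, at 38208709 to 38209270. Neither of the regions of all 4 lists was touched by H3K27ac at E10.5. The best H3K27me3 peak lay in the region 105 kb away in 3 libraries, and in the near one in forelimb replicate 2. Forelimb replicate 1 also had 4 short H3K27me3 peaks of 0.240 to 0.496 kb between 38212517 and 38218922, among the acetylated places. Of windows of 200 kb, 95.4% had less H3K27ac and 94.98% less H3K27me3 than that of Msx1. For Bmp2 these shares were 50.05% and 82.7%, for Bmp4 81.9% and 79.4% and for Msx2 81.4% and 80.8%, each among windows of its own length. These shares count windows without any peak as lower. Of 250 kb windows, 56.9% had an H3K27ac peak and 40.4% an H3K27me3 peak. Bmp7, with 1 H3K27me3 peak in 1 list, still stood above 73.6% of windows for that mark.

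Msx2, its close relative, was less covered than Msx1 by both marks. H3K27ac covered 2.396 and 1.09 kb in forelimb and 1.75 and 2.55 kb in hindlimb (means 1.74 ± 0.926 and 2.15 ± 0.566 kb, SD, n = 2 each). No H3K27ac region of the window was found in all 4 lists. The one with the most bases, 53567266 to 53568335, held 0.687, 0, 0.889 and 0.958 kb and was again missing from forelimb replicate 2. The best peak stood above 81.6% and 80.1% of the hindlimb lists and lay in this region. In forelimb the best peaks stood above 55.7% and 38.8% of their lists and lay elsewhere, at 53571989 to 53572436 and 53560048 to 53560553. The latter, of forelimb replicate 2, had 0.466 of its 0.506 kb under H3K27me3 of forelimb replicate 2. H3K27me3 covered 0.556 and 0.510 kb in forelimb and 2.16 and 1.06 kb in hindlimb (means 0.533 ± 0.0325 and 1.61 ± 0.779 kb, SD, n = 2 each), 3.02 times more on average in hindlimb. Both hindlimb libraries were above both forelimb libraries. Its most covered region, 53560004 to 53561245, lay 6.02 kb before the most covered acetylated one and held 0.244, 0.510, 1.18 and 0 kb. In hindlimb replicate 2 the nearest peak was 0.707 kb long, at 53561379 to 53562085. A region at 53569139 to 53569901 held 0.543 and 0.351 kb in hindlimb and 0 kb in each forelimb library.

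The limb comparison was read against the rest of the genome, since 2 libraries against 2 allow no useful test and none was run. For H3K27ac, the limbs were separate, that is, each library of a limb covered more bases than each of the other limb, in 1 of the 5 windows (Bmp2, forelimb higher). Of 6013 windows of 250 kb with an H3K27ac peak, 18.4% were separate, so the count is near the background. For H3K27me3, 2 of the 5 were separate (Bmp2 and Msx2, hindlimb higher), against 48.1% of 4270 windows with an H3K27me3 peak where hindlimb was higher and 1.85% where forelimb was, so this count is no result about the genes either. The hindlimb H3K27me3 lists covered more bases over the whole genome, 13.50 and 12.02 Mb against 9.93 and 7.56 Mb. Leaving out 1 library at a time moved the H3K27ac count to 4 without forelimb replicate 1 or hindlimb replicate 1 and to 2 without forelimb replicate 2 or hindlimb replicate 2. It moved the H3K27me3 count to 3 without forelimb replicate 1 and to 4 without forelimb replicate 2 or hindlimb replicate 1, and left 2 without hindlimb replicate 2. Bmp2 and Msx2 were separate for H3K27me3, with hindlimb higher, in each of these 4. A single list then stands for 1 limb, so separation is easier to reach, and no genome share is given beside these counts.

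Scaling each list to the same total of covered bases changed the H3K27ac calls. It left the H3K27me3 calls at Bmp2 and Msx2, with smaller differences at these genes. With scaling, the limbs were separate for H3K27ac in all 5 windows, forelimb higher at Bmp2 and Bmp7 and hindlimb higher at Bmp4, Msx1 and Msx2. Of the 6013 windows of 250 kb with an H3K27ac peak, 29.1% were. With lists cut to the length of the shortest, Bmp2, Bmp4, Bmp7 and Msx1 were separate in those directions, against 22.8%. With the top 50% of each list, Bmp4, Bmp7 and Msx1 were, against 18.4%. All these genome shares include windows with a peak in 1 list only, which cannot be separate. The forelimb lists cover 14.7 and 7.63 Mb in all, and which scale is right cannot be read from peak lists. For H3K27me3, Bmp2 and Msx2 were separate with hindlimb higher under each of these settings. The scaled H3K27me3 means at Bmp2 were 2.24 kb (forelimb) and 2.60 kb (hindlimb), 1.16 times higher against 1.70 unscaled. At Msx2 they were 0.664 and 1.33 kb, 2.01 times higher against 3.02. At Msx1, where the limbs overlapped, the order of the H3K27me3 means turned with scaling, to 4.32 kb for forelimb and 4.02 kb for hindlimb. The limbs also overlapped at Bmp4, where the means moved apart, from 1.40 kb (forelimb) and 1.16 kb (hindlimb) to 1.66 and 0.958 kb. The genome's share with hindlimb higher was 22.4% with scaling, beside 15.3% with forelimb higher, and 50.5% with lists of equal length and 62.7% with the top 50%.

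Single regions gave few limb differences. Of the 55 H3K27ac regions, 4 were in every list of a limb and in no list of the other limb, against 5.54% of all H3K27ac regions. They were the Bmp4 place given above, 172759912 to 172760435 (hindlimb) and 172844987 to 172845589 (forelimb) in the Bmp7 window, and 53472359 to 53472709 (hindlimb) in the Msx2 window, 95.3 kb from its main region. Of the 21 H3K27me3 regions 1 was of this kind, the Msx2 place given above, against 9.61% of all. Most regions were seen once: 36 of 55 H3K27ac and 13 of 21 H3K27me3 regions were in 1 list only, compared with 53.4% and 49.5% of all regions. Leaving out single libraries raised the H3K27ac count to between 11 (without forelimb replicate 1) and 20 (without forelimb replicate 2), with 16 and 13 without hindlimb replicates 1 and 2, since a single list then stands for a limb. The H3K27me3 count became 3, 8, 6 and 4 in the same order. No genome share is given for the counts without single libraries.

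Overlap of the marks in replicated regions was seen at Bmp2 in forelimb, over few bases, and was lost under some of the other settings. Of 10 H3K27ac regions found in both forelimb libraries, 1 touched an H3K27me3 region of both forelimb libraries, that of Bmp2, against 1.91% of such regions over the genome. Of 12 in hindlimb, none did, against 3.57%. The forelimb count stayed at 1 with lists of equal length, with regions joined over 1 kb and in the 100 kb windows. It fell to 0 with the top 50% of each list and to 0 when 50% of a region had to be covered. With single libraries left out it moved, except without H3K27me3 forelimb replicate 1, where it stayed at 1. It was 2 without H3K27ac forelimb replicate 1 or H3K27me3 forelimb replicate 2, 3 without H3K27ac forelimb replicate 2, and the hindlimb count 2 without H3K27ac hindlimb replicate 2.

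**Figure D3:**
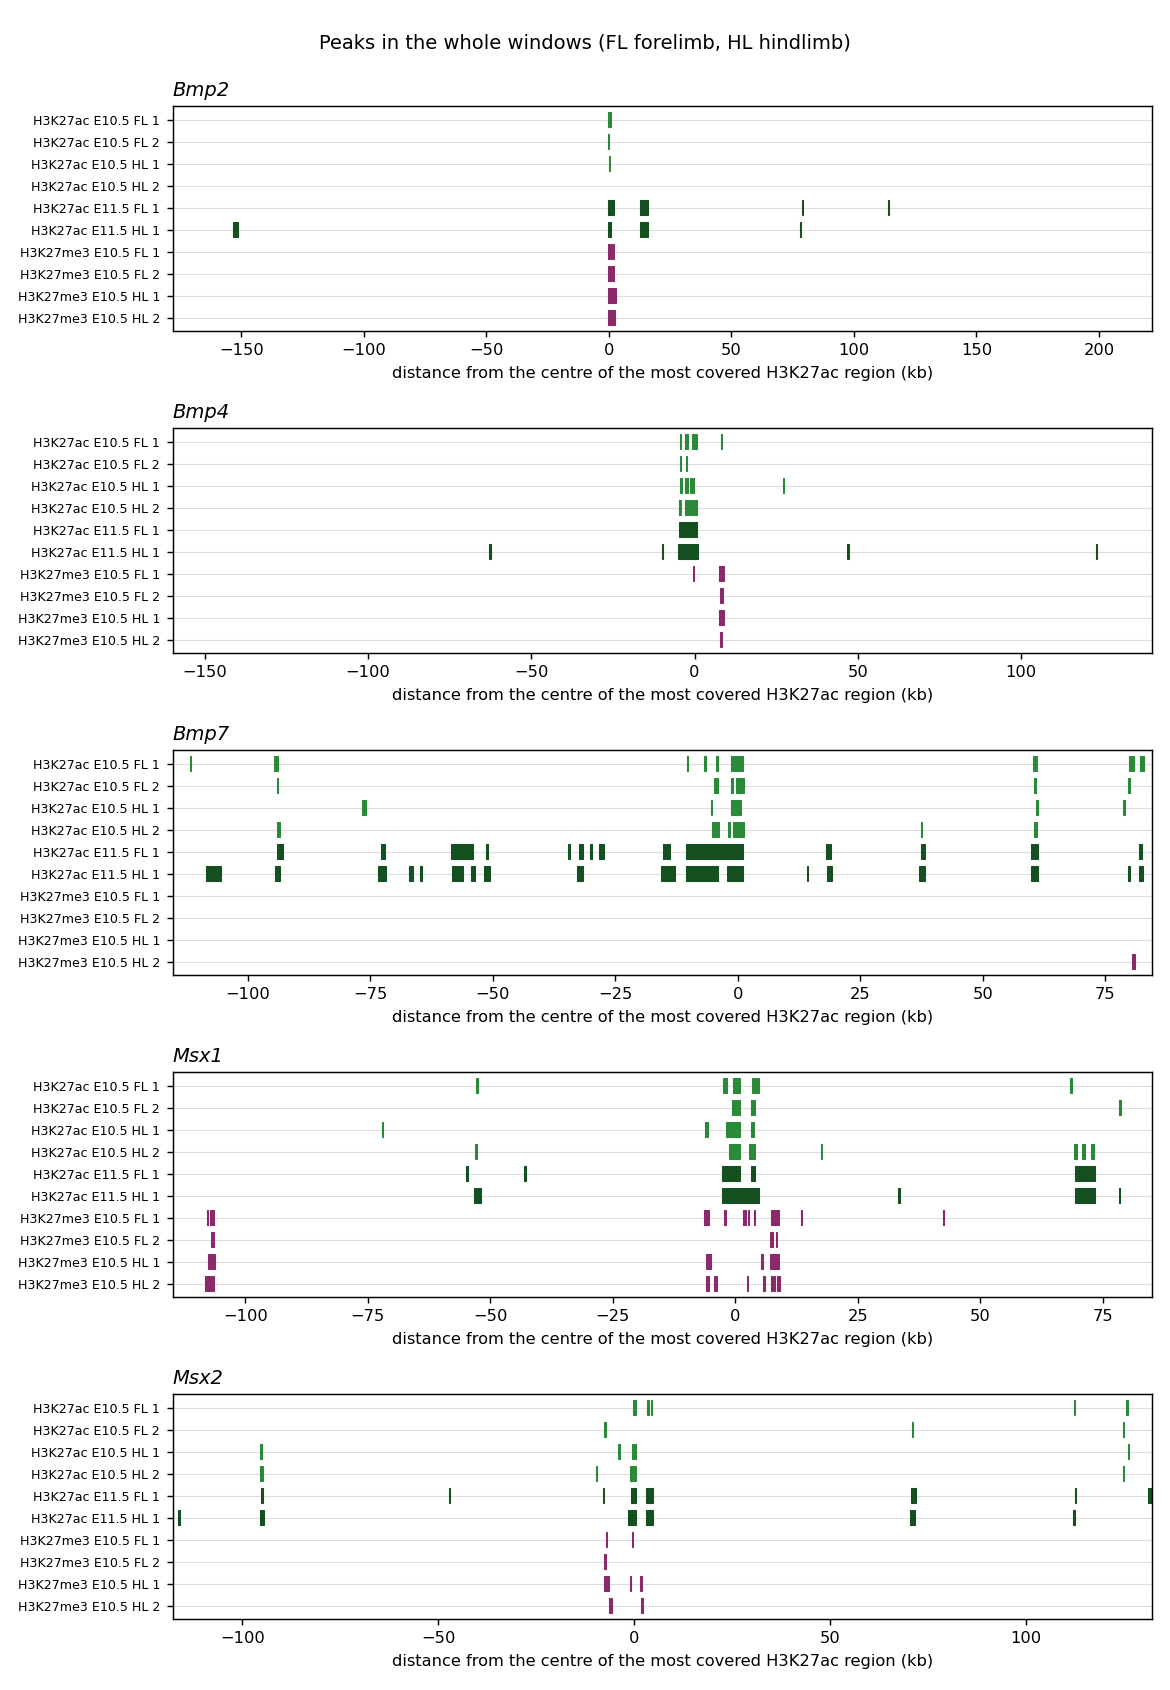
Peaks of the 10 lists over the whole window of each gene, with the distance in kb from the centre of the most covered H3K27ac region on the x axis and one row per library (colours as by mark and stage: green H3K27ac at E10.5, dark green at E11.5, purple H3K27me3; short peaks are drawn with an outline and look wider than they are). The E11.5 rows of Bmp7 hold 14 and 18 peaks, and E11.5 peaks near 14 kb from the centre at Bmp2 and 71 kb at Msx1 are in both limbs.

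H3K27ac at E11.5 was followed by overlap alone. The E11.5 lists appear to have been joined over short gaps and used another antibody lot, so covered bases and peak numbers are not compared between the stages. Of the 10 forelimb regions found in both E10.5 libraries, 9 were touched at E11.5 (90%, exact Clopper-Pearson 95% interval 55.5 to 99.7%, counting error only), against 90.8% over the genome. All 12 hindlimb regions were (100%, 73.5 to 100%), against 92.6%, and without hindlimb replicate 2, when regions of replicate 1 alone enter, the share was 61.9%. The exception was the forelimb place in the Bmp7 window, 172844987 to 172845589, which the hindlimb list touched at E11.5.

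At Bmp4 a single E11.5 peak spanned the separate E10.5 places in each limb, 47005137 to 47010479 in forelimb and 47004768 to 47010936 in hindlimb, and the H3K27me3 place beside it was not touched. At Msx1 the forelimb list had 38212232 to 38215820 and 38218139 to 38218918, and the hindlimb list 1 peak from 38212139 to 38219733. The Msx1 H3K27me3 regions of all 4 lists were not touched by either. Bmp7 held the longest E11.5 peak of the 5 windows, 11.8 kb at 172754734 to 172766490 in forelimb. In hindlimb the same stretch was split into peaks of 6.56 and 3.31 kb. At Msx2 the most covered region was touched in both limbs. The hindlimb peak there, 53566091 to 53568209 (2.12 kb), was the longest of the window. Nearby, 53570678 to 53572638 was covered in hindlimb and 53570767 to 53572638 in forelimb, a place with E10.5 peaks in forelimb replicate 1 alone.

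Of the E11.5 peaks, 17 of 32 in forelimb and 20 of 38 in hindlimb touched none of the 4 E10.5 H3K27ac lists (53.1% and 52.6%), against 45.9% and 56.9% of all E11.5 peaks. Bmp7 held 9 and 11 of these. Those at the same place in both limbs lay in the Bmp2 and Bmp7 windows, 7 of the 17 in forelimb and 8 of the 20 in hindlimb. Over the genome, 61.5% of the forelimb peaks and 31.4% of the hindlimb peaks without an E10.5 list touched the other limb. At Bmp2 it was 133390618 to 133394081 in forelimb and 133390688 to 133394283 in hindlimb, 14.2 and 14.4 kb from the main region, and this was the longest E11.5 peak of the window in each limb. In the Bmp7 window they included 172706843 to 172711410 (4.57 kb) in forelimb, 56.2 kb from the main region, which overlapped 2 hindlimb peaks. At Msx1, 38284116 to 38288361 in forelimb and 38284215 to 38288245 in hindlimb lay 71.4 and 71.3 kb from the centre, and at E10.5 only hindlimb replicate 2 had peaks there, 3 of 0.596 to 0.653 kb.

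Among H3K27me3 regions found in both libraries of a limb, that of Bmp2 was touched by E11.5 H3K27ac in both limbs. Of such regions, 2 of 5 in forelimb (Bmp2 and Msx2, the latter over 50 bases) and 1 of 6 in hindlimb (Bmp2) were touched, against 2.95% and 4.50% over the genome. At Bmp2, E11.5 H3K27ac covered 2.30 kb of the region in forelimb and 1.03 kb in hindlimb. Of the 13 H3K27me3 regions seen in a single library, some were also touched in both limbs. They were 1 at Bmp4 (47009276 to 47009673), 2 at Msx1 (38212517 to 38213012 and 38218683 to 38218922) and 1 at Msx2 (53567188 to 53567499), all of them from forelimb replicate 1. No genome share is given for regions of a single library, and the shares above are for regions of both libraries. H3K27me3 at E11.5 was not analysed here.

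**Figure D4:**
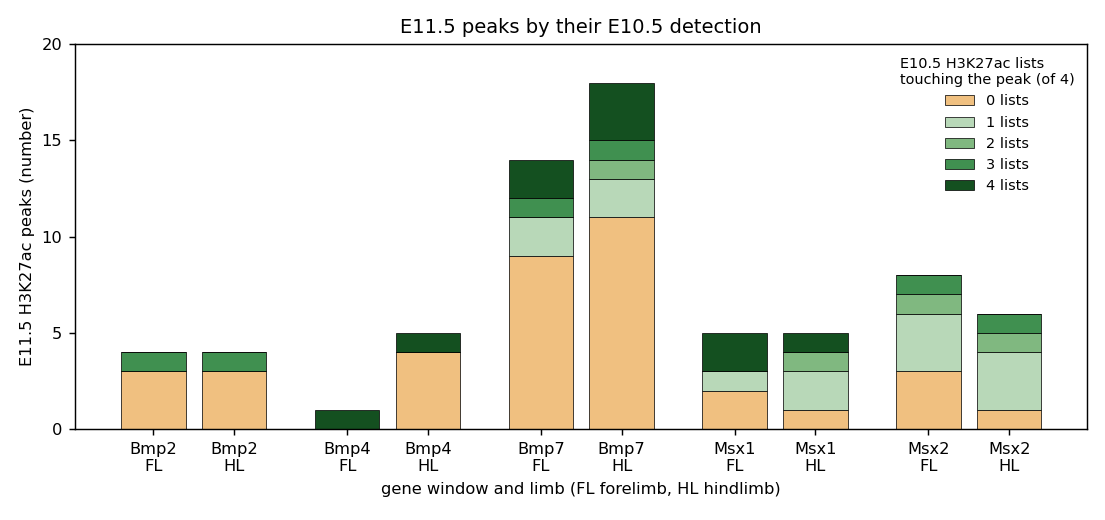
Number of E11.5 H3K27ac peaks (y axis) in the window of each gene and limb, split by how many of the 4 E10.5 H3K27ac lists touch them. Bmp7 has 14 and 18 peaks, of which 9 and 11 touch no E10.5 list.

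The wider BMP pathway was placed in 13 further windows of 100 kb, for ligands, receptors, antagonists, the inhibitory SMAD gene Smad6 and the Id genes, which encode helix-loop-helix inhibitors and are direct BMP targets. H3K27ac was present in all 4 lists in 8 of 13 windows and H3K27me3 in 5 of 13, and both in 1 (Id4). Among the 5 windows of 100 kb at the ligand and Msx genes, these counts were 4, 4 and 3. Of 26381 windows of 100 kb along the genome, which unlike these were not placed on genes, 18.6% had H3K27ac, 10.03% H3K27me3 and 3.41% both in all 4 lists. The median over the windows of the mean of 4 lists was 2.32 kb of H3K27ac and 0 kb of H3K27me3 in the pathway, and 2.39 and 1.28 kb at the 5 genes. The median over all 100 kb windows of the genome was 0 kb for each mark.

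Of the windows at Id genes, 3 of 4 carried H3K27ac without H3K27me3, and those at the 3 antagonist genes had H3K27me3 in all 4 lists. All values here are totals over 100 kb windows named by a gene. A window may hold other genes, and peaks in it were not assigned to a gene. Id1 had 12.1, 4.96, 4.46 and 6.37 kb of H3K27ac in forelimb 1 and 2 and hindlimb 1 and 2, Id3 10.5, 5.81, 5.27 and 7.70 kb, and both had 0 kb of H3K27me3 in all 4 lists. Id2, Smad6, Gdf5 and the receptor gene Bmpr2 were likewise acetylated in all 4 lists with 0 kb of H3K27me3. The antagonist gene Nog had 0 kb of H3K27ac and 0.923 to 1.85 kb of H3K27me3, and Fst, the gene of follistatin, 0 kb and 0.721 to 3.10 kb. Grem1, the limb BMP antagonist, had H3K27me3 of 0.877 and 0.362 kb in forelimb and 2.11 and 2.48 kb in hindlimb, and H3K27ac in 2 of 4 lists, at 0.641 and 0.481 kb. The ligand gene Bmp6 had 3.24 to 4.07 kb of H3K27me3 and 0 kb of H3K27ac. The receptor gene Bmpr1a had 1.58 to 3.47 kb of H3K27ac, with H3K27me3 in the hindlimb lists alone at 0.508 and 0.310 kb. Bmp5 had 1 H3K27ac list at 0.258 kb and no H3K27me3. The limbs were separate for H3K27ac in 1 of 13 windows (Id4, forelimb higher, against 18.8% of 100 kb windows in either direction) and for H3K27me3 in 4 (Bmpr1a, Nog, Grem1 and Fst, hindlimb higher, against 43.9%).

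**Figure D5:**
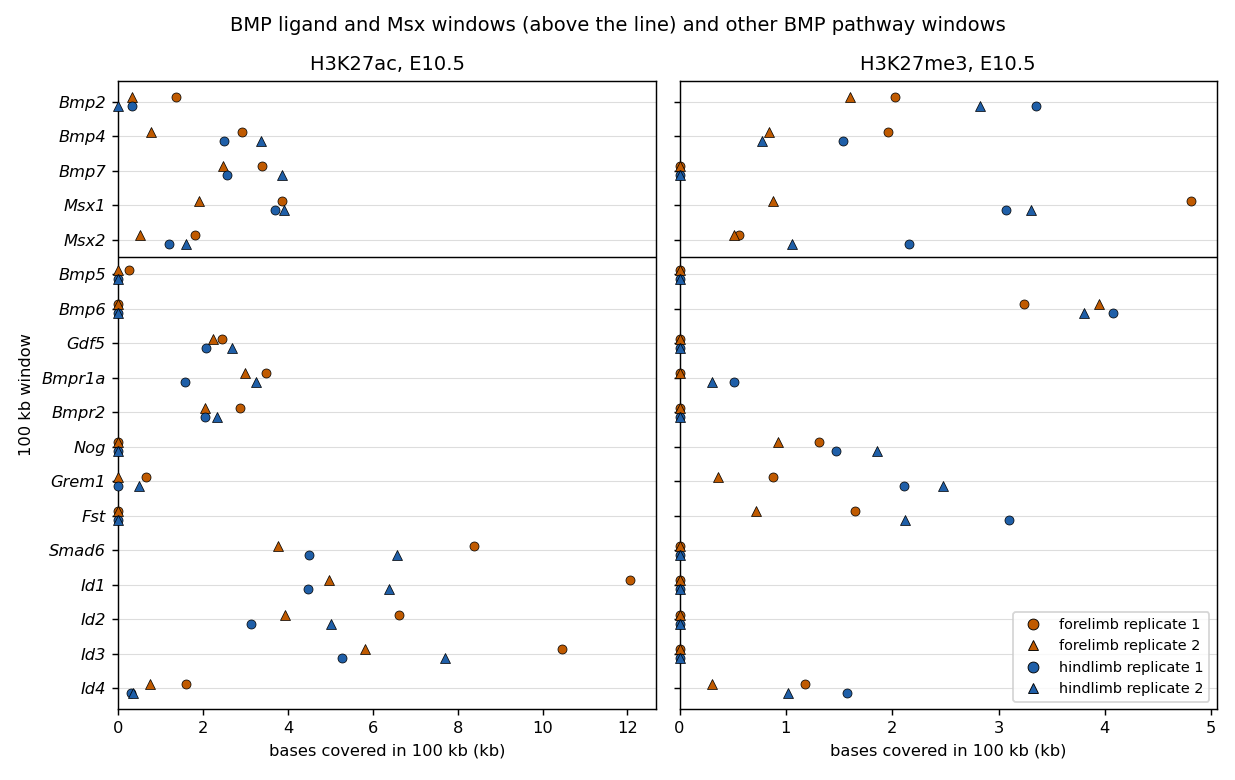
Bases covered in windows of 100 kb (kb, x axis) for the 5 genes, above the line, and 13 other BMP pathway genes, for each E10.5 library. Id1, Id2, Id3 and Smad6 lie to the right for H3K27ac and at 0 kb for H3K27me3, and Nog, Fst and Bmp6 at 0 kb for H3K27ac.

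Likeness was measured as the sum over the 8 E10.5 lists of the absolute difference in percent of the 100 kb window covered, against 17 other windows. Bmp2 was nearest to Fst (4.21 points) and Grem1 (5.81), Bmp4 to Msx2 (7.10) and Bmp7 (7.80), and Bmp7 to Gdf5 (2.81) and Bmpr2 (2.95). Msx1 was nearest to Bmp4 (10.8) and Bmp7 (14.3), and Msx2 to Id4 (4.03) and Grem1 (5.90). The least alike window was Id3 for 4 of the 5 genes, at 24.8 to 37.1 points, and Bmp6 for Bmp7, at 27.3 points.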

How the data were processed

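Peak lists of 10 ChIP-seq libraries were used. The other 14 samples (inputs and mRNA) were not analysed here. The submitters' processing notes name Bowtie 0.12.3, MACS 1.37 and the build mm9. Every E10.5 peak has a score, deposited by the authors, on a -10 log10 p-value scale. Its minimum matches a cutoff of 1e-05, which the track names in the file headers also carry. The deposited E11.5 lists hold positions alone, with no header, and the cutoff was not stated in what was read. Their closest peaks are 1001 bp apart and those of the E10.5 lists 1 or 2 bp. Per the labels, run type follows the mark and antibody lot follows the stage, so these pairs cannot be told apart. For E11.5 the growth text gives day 10.5, and the stage in the titles was used. Nothing in the labels ties replicates to separate litters, so the spread may be technical. The input behind each list was not stated.

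Covered bases were counted per window and list with Python 3.11.15 after clipping peaks to the window. E10.5 peaks of a mark were joined at gap 0, and 1 bp of cover placed a region in a list. No test was run between limbs. Backgrounds are all joined regions, or windows tiled along the autosomes and X. Intervals are from SciPy 1.17.1 and cover counting error only. The counting was tested on simulated lists, and figures were drawn with matplotlib 3.10.9. The 13 pathway and 3 marker windows were placed from general knowledge of mm9. All 21 windows lay on the chromosome and in the order of the GRCm38.p6 table, which does not check their bounds. By rule the text names the 5 genes, the pathway windows and, per gene and mark, the most covered region, best peaks, regions of a single limb or of both marks, and the longest E11.5 peak. Other places were picked with their values known. The genes and lists were chosen with earlier results of these data known.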

Additional observations from a re-analysis of the deposited data

How the results depend on the processing

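The counts were recomputed with the top 50% of each scored list, with scored lists of equal length (13589 H3K27ac and 10477 H3K27me3 peaks), with scaled totals, with 100 kb windows, with 50% of a region covered, with regions joined over 1 kb, and without each replicate. The number of windows with separate limbs was 1 for H3K27ac, 3 with the top 50%, 4 at equal length, 5 with scaled totals and 2 to 4 without single replicates, and for H3K27me3 it was 2, with 2 to 4 without single replicates. The 4 H3K27ac regions of 1 limb only became 1 with the top 50%, 2 at equal length, 1 when joined over 1 kb, 2 in the 100 kb windows and 11 to 20 without single replicates. The 1 such H3K27me3 region became 0 with the top 50% and 0 with 50% of a region covered, and 3 to 8 without single replicates. Regions with both marks in forelimb, 1 as reported, were 0 with the top 50% and 0 with 50% covered, and 1 to 3 without single replicates. In hindlimb they were 0 to 2 without single replicates. The share of E10.5 regions touched at E11.5 rose in forelimb from 90% to 100% with the top 50% and in the 100 kb windows (3 and 7 regions). It fell to 85.7% at equal length, 75% with 50% covered and 81.8% when joined over 1 kb (7, 4 and 11 regions). In hindlimb it was 90% when joined over 1 kb (10 regions) and 100% under the other processing settings. Without single replicates it was 61.3 to 80% in forelimb and 61.9 to 88.5% in hindlimb. The cause of these shifts was not tested, and no genome share is given for the counts without single replicates. Of the 20 mean covered values, 7 moved by more than 1 SD with the top 50%, 3 at equal length, 4 with scaled totals and 2 in the 100 kb windows.

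Replicate numbers are shared between the limbs. With a replicate block, counting windows in which both same-numbered pairs differed in 1 direction, the count was 1 for H3K27ac and 3 for H3K27me3, the third being Bmp4 at -0.417 and -0.069 kb, hindlimb minus forelimb. These are counts of directions, no genome share is given beside them, and no paired test was run. Sequencing depth is unknown, and the part of the shorter forelimb replicate 2 lists in the regions missing from it was not tested.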
